A study of Arabidopsis thaliana with 24 samples.

Results

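UGT73B4 (AT2G15490), UGT73B5 (AT2G15480), UGT73C1 (AT2G36750) and UGT76B1 (AT3G11340) encode UDP-glycosyltransferases of Arabidopsis thaliana, and each was read by 1 probe set of an Affymetrix array. They were chosen by their log2 change from 0 h to 1 h after the herbicide 2,4-D, which was among the largest rises in leaves, and are followed here by gene name. That change is described without a test. They are 4 of 51 measured genes that the gene annotation names as UDP-glycosyltransferases (UGT genes), among 22746 probe sets in all.

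The study sprayed WT plants of the Col-0 background and plants of the line acx1-2 in the same background (called ACX in the labels), which is a single line disrupted in an acyl-CoA oxidase gene of peroxisomal fatty acid breakdown. Leaves were collected 1 h and 72 h after a spray of 23 mM 2,4-D carried in DMSO and EtOH, each at 1%, and control plants received the carriers alone. The 24 arrays form 6 groups: WT at 0 h (6 arrays), 1 h (3) and 72 h (3), and ACX at 0 h (6), 1 h (3) and 72 h (3). Each replicate was a pool of leaves from at least 5 plants. The labels state neither plant age nor whether the 0 h arrays are the carrier-sprayed controls or when those leaves were taken, so differences from 0 h include any effect of spraying, carriers, time of day and leaf age.

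Family 1 UDP-glycosyltransferases move a sugar, usually glucose from UDP-glucose, onto small molecules. The added sugar makes the acceptor more water soluble and changes its activity, and vacuolar transporters can then store the product. In plants such conjugation is the second phase of herbicide and xenobiotic detoxification, beside conjugation to glutathione, and it also tunes the pools of hormones and defence signals. UGT73B4 and UGT73B5 have been studied for activity on flavonols, chlorinated phenols and explosives and for roles in redox and pathogen responses. UGT73C1 glucosylates cytokinins and xenobiotics in vitro. UGT76B1 glucosylates isoleucic acid, salicylic acid and N-hydroxypipecolic acid, and plants without it show raised salicylic acid defence. UGT73B4 and UGT73B5 are neighbours on chromosome 2 with overlapping gene models in the TAIR10.1 annotation, and UGT73C1 lies beside UGT73C2 in a run of UGT73C genes on the same chromosome. Cross-hybridisation between such related transcripts was not analysed here, since probe sequences were not used.

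All values below are log2 expression values of a probe set as deposited, and a step of 1 is a doubling. A value is comparable between arrays for 1 gene and not between genes. Array medians lay between 5.95 and 6.17, with the 72 h arrays at 6.13 to 6.17 and the others at 5.95 to 6.07. Arrays of a group correlated with the others of their group at a mean r of 0.978 to 0.993 across probe sets. The number of arrays limits the precision. Of the leaf markers 2 of 7 had a named probe set: RCA (Rubisco activase) and LHCB4.1 (a light-harvesting protein) read at least 12.5 on all arrays. The root marker PYK10, 1 of 3 measured, read 5.17 to 8.92, and no vascular marker of 4 had a named probe set. The level of the disrupted oxidase gene was not analysed here.

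In WT, UGT73B4 read 4.63 to 5.09 at 0 h (median 4.76 of 6 arrays). It read 8.63, 8.70 and 8.68 at 1 h and 5.80, 5.82 and 5.70 at 72 h. The 3 times did not overlap, and the replicates within each treated group lay close together. In ACX it read 4.71 to 5.21 at 0 h (median 4.90), then 7.14, 8.92 and 9.43 at 1 h and 7.62, 6.65 and 6.16 at 72 h. Here the 1 h and 72 h arrays overlapped, because the lowest 1 h array was below the highest 72 h array. From the highest group mean to the lowest the order was WT 1 h, ACX 1 h, ACX 72 h, WT 72 h, ACX 0 h and WT 0 h, with overlap between the neighbours at 1 h, between ACX 1 h and ACX 72 h, and between the genotypes at 0 h.

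UGT73B5 had the largest 1 h change in WT of the 51 UGT genes. In WT it read 4.76 to 5.51 at 0 h (median 4.99), then 11.07, 10.93 and 10.76 at 1 h and 7.51, 7.97 and 8.39 at 72 h. In ACX it read 4.89 to 6.52 at 0 h (median 5.59), then 9.69, 10.91 and 11.04 at 1 h and 9.11, 8.41 and 8.45 at 72 h. The 3 times did not overlap in either genotype, and all 3 ACX arrays at 72 h lay above all 3 WT arrays, with a narrow gap between 8.39 and 8.41. The ACX 0 h arrays were the more scattered (SD 0.61 against 0.32 in WT, n = 6 each), with replicates 3 and 6 highest.

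UGT73C1 read 4.29 to 5.15 in WT at 0 h (median 4.53), then 9.51, 9.98 and 10.10 at 1 h and 4.88, 5.47 and 5.68 at 72 h. At 72 h its lowest array lay within the 0 h range and the other two above it. In ACX it read 4.14 to 4.90 at 0 h (median 4.50), then 9.26, 10.04 and 10.01 at 1 h and 7.22, 5.88 and 6.78 at 72 h. The 3 ACX times did not overlap, and the 72 h arrays of ACX all lay above those of WT. Its 0 h levels were close to the lower quartile of the arrays (4.42 to 4.61), a range in which the summarising method RMA compresses changes.

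UGT76B1 is the gene linked to salicylic acid and N-hydroxypipecolic acid. In WT it read 5.03 to 5.74 at 0 h (median 5.22), then 9.66, 9.33 and 8.82 at 1 h and 7.53, 7.86 and 6.20 at 72 h. In ACX it read 5.79 to 6.82 at 0 h (median 6.28), then 7.91, 9.37 and 10.68 at 1 h and 6.43, 6.92 and 6.60 at 72 h. All 6 ACX arrays at 0 h lay above all 6 WT arrays, though by a narrow gap (5.74 to 5.79). At 72 h the ACX arrays lay within the range of ACX at 0 h or just above it, whereas all WT arrays stayed above WT at 0 h. Its order of group means was ACX 1 h, WT 1 h, WT 72 h, ACX 72 h, ACX 0 h and WT 0 h, with overlap between the genotypes at 1 h, between them at 72 h, and between ACX at 72 h and at 0 h.

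**Figure D1:**
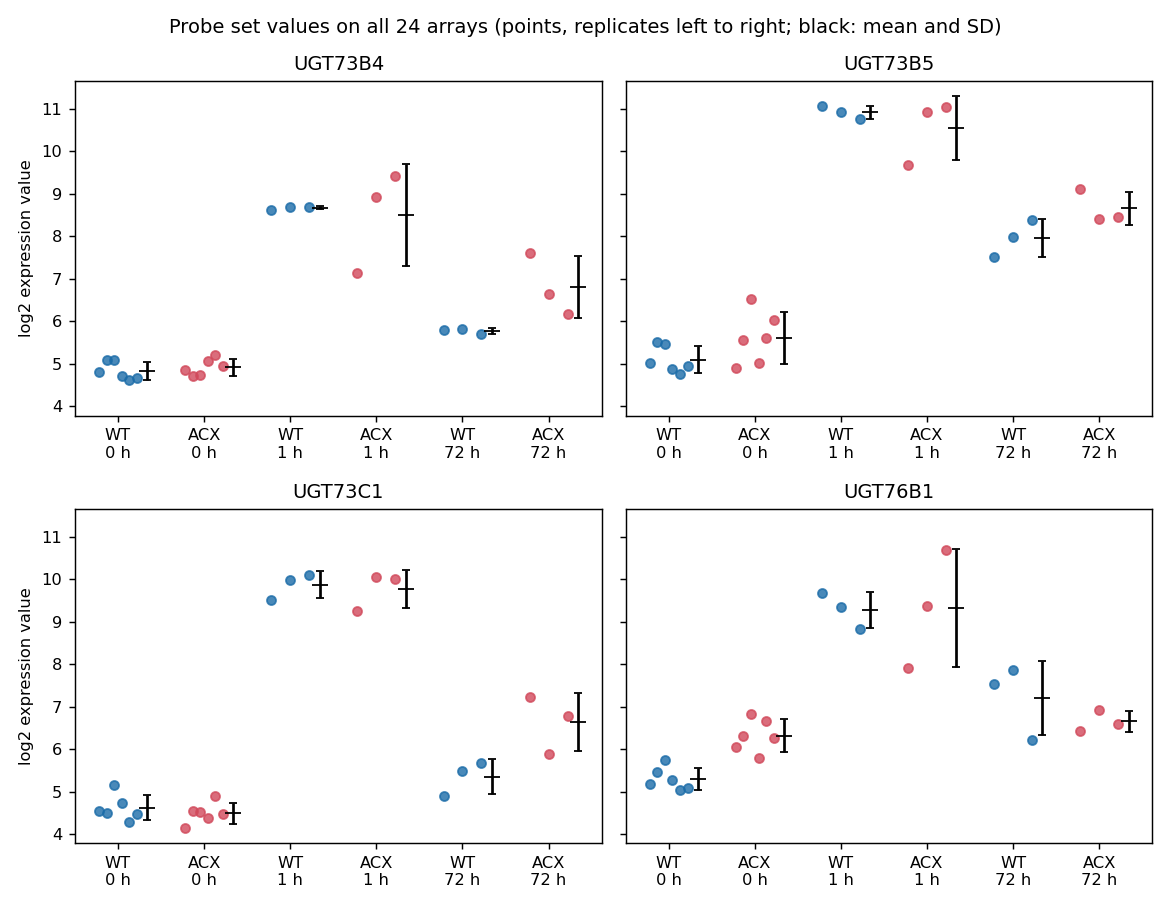
Log2 expression value (vertical axis) of the 4 probe sets in the 6 groups (horizontal axis), with WT in blue and ACX in red. Points are single arrays in order of replicate number, and the black mark and bar are the group mean and SD. Every gene is highest at 1 h, and ACX 1 h replicate 1 is the lowest ACX array at 1 h in all 4 panels.

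The 1 h change was the basis of the choice and is given as a description, from a limma fit over all probe sets. In WT, UGT73B5 was 5.82 higher than at 0 h on the log2 scale (SE 0.32, 56.7-fold), UGT73C1 5.25 (SE 0.25, 38.0-fold), UGT76B1 3.98 (SE 0.41, 15.7-fold) and UGT73B4 3.84 (SE 0.32, 14.3-fold). In ACX UGT73B5 was 30.7-fold higher, UGT73C1 38.8-fold, UGT76B1 8.03-fold and UGT73B4 11.9-fold. In WT and in ACX the 1 h arrays of all 4 genes lay above their 0 h arrays, as did those of 11.1% and 9.36% of all probe sets, and nothing is read from this count. The 4 genes ranked 1 to 4 among the 51 UGT genes by change in WT. UGT76E12, the next gene, was close behind UGT73B4 (3.69, SE 0.41), and in ACX its change of 3.22 was larger than that of UGT76B1.

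Replicate 1 of ACX at 1 h was the lowest of its 3 arrays for all 4 genes. Across the 831 other probe sets that rose at least 2-fold in WT at 1 h, the median difference from the ACX 0 h mean was 1.10 on that array, 1.51 on replicate 2 and 1.81 on replicate 3. The WT arrays at 1 h gave 1.78, 1.59 and 1.56 against the WT 0 h mean. Without ACX replicate 1 the 1 h change in ACX was 4.25 for UGT73B4 and 3.71 for UGT76B1, and without replicate 3 it was 2.33 for UGT76B1. The part of this array in the results was not tested.

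Beside UGT73B4 and UGT73B5, which neighbour each other, the 4 measured immediate neighbours of these genes on the chromosome did not pass the test at 1 h. UGT73C2, which follows UGT73C1, had a change of 0.05 (SE 0.09, adjusted p = 0.76, limma) in WT and 0.09 (SE 0.09, adjusted p = 0.541) in ACX. SWC2 on the other side of UGT73C1 had 0.26 (adjusted p = 0.307) and 0.15 (adjusted p = 0.612). AT2G15500 beside UGT73B4 had -0.10 and -0.06, and AT3G11350 beside UGT76B1 had -0.12 and -0.04, none of them called. The outer neighbours AT2G15470 and PIRL9 have no named probe set here.

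At 72 h part of the increase remained for most of these genes, in amounts that varied between them. UGT73B5 was still 7.27-fold above 0 h in WT and 8.28-fold in ACX. UGT73C1 was 1.66-fold above in WT and 4.39-fold in ACX, UGT73B4 1.92-fold and 3.70-fold, and UGT76B1 3.74-fold in WT, while in ACX its 1.26-fold difference did not pass the test. In limma with Benjamini-Hochberg adjustment, 4 of 4 genes were called higher in WT and 3 of 4 in ACX, where 26.4% and 26.3% of all probe sets were called higher. These tests share the 0 h arrays with the 1 h comparison that chose the genes.

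In WT at 72 h the log2 change was 2.86 for UGT73B5 (SE 0.32, adjusted p = 1.07e-07), 1.90 for UGT76B1 (SE 0.41, adjusted p = 0.000434), 0.94 for UGT73B4 (SE 0.32, adjusted p = 0.019) and 0.73 for UGT73C1 (SE 0.25, adjusted p = 0.0192). For 3 of them all 72 h arrays lay above all 0 h arrays, against 23.4% of probe sets, the exception being UGT73C1. The smaller changes rest on few arrays. The call of UGT73B4 was lost with 0 h replicates 1 to 3 only (0.78, adjusted p = 0.134) and without WT 72 h replicate 1 (0.92, 0.0542) or 2 (0.92, 0.0558). That of UGT73C1 was lost with 0 h replicates 1 to 3 only (0.61, 0.115), without WT 72 h replicate 2 (0.66, 0.0725) or 3 (0.56, 0.119), and when each array was centred on its median (0.57, 0.0505).

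In ACX at 72 h the log2 change was 3.05 for UGT73B5 (SE 0.32, adjusted p = 3.77e-08), 2.13 for UGT73C1 (SE 0.25, adjusted p = 2.46e-07), 1.89 for UGT73B4 (SE 0.32, adjusted p = 3.93e-05) and 0.33 for UGT76B1 (SE 0.41, adjusted p = 0.504). The interval of the UGT76B1 change ran from -0.51 to 1.18 (95%). The arrays of the first 3 genes did not overlap those at 0 h, against 23.5% of probe sets, and those of UGT76B1 did. These 3 calls held without each single array, with changes of 2.82 to 3.23 for UGT73B5, 1.84 to 2.51 for UGT73C1 and 1.48 to 2.21 for UGT73B4.

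**Figure D2:**
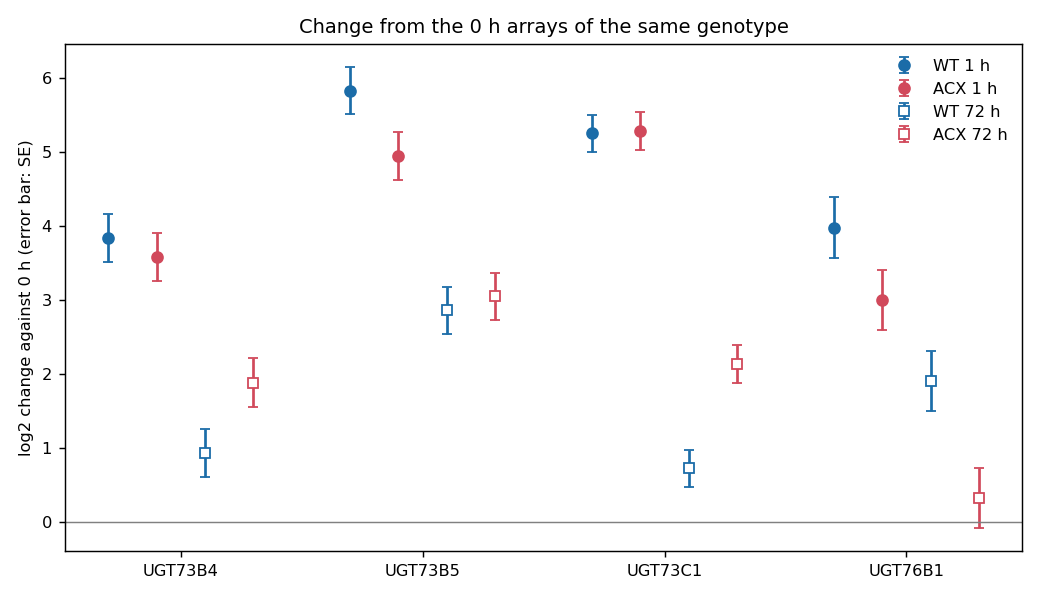
Log2 change against the 0 h arrays of the same genotype (vertical axis) for the 4 genes at 1 h (filled circles) and 72 h (open squares), WT in blue and ACX in red, with standard errors from the fit. The 1 h changes reach 5.82, and the 72 h changes lie between 0.33 and 3.05.

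From 1 h to 72 h, UGT73C1 had the largest fall in WT of the 4 genes, a difference of -4.52 (SE 0.29), against -2.96 for UGT73B5, -2.90 for UGT73B4 and -2.07 for UGT76B1. In ACX the differences were -3.14 (SE 0.29), -1.89, -1.69 and -2.67. These values use the 1 h arrays in which the genes had been chosen as high, so they are a description with no test. The ACX difference was -2.36 for UGT73B4 and -3.38 for UGT76B1 without ACX 1 h replicate 1.

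Some markers of other cell types changed from 0 h to 72 h. Over that interval TRY, a trichome regulator and 1 of 3 trichome markers measured, fell. Its change was -2.85 in WT (adjusted p = 3.99e-07, limma) and -2.55 in ACX (adjusted p = 1.79e-06). The root marker PYK10 was not called, with 0.08 in WT (adjusted p = 0.916) and -0.97 in ACX (adjusted p = 0.175). Of 4 guard cell markers 2 were measured, and both fell from 0 h to 72 h in both genotypes. AT1G22690 had -3.58 in WT and -5.54 in ACX, and FMA, a guard cell regulator, had -0.40 and -0.88. The mean level of these 2 per array was 8.19 to 8.73 in WT and 8.92 to 9.05 in ACX at 0 h, and 5.67 to 7.20 and 5.55 to 5.93 at 72 h. At 72 h RCA differed from 0 h by 0.04 in WT (adjusted p = 0.551) and 0.05 in ACX (adjusted p = 0.512), and LHCB4.1 fell, with -0.88 and -1.10. In ACX at 1 h RCA fell, with -0.21 (adjusted p = 0.0115), as did FMA, with -0.42 (adjusted p = 0.0281), and PYK10, with -1.77 (adjusted p = 0.0344). In WT at 1 h RCA had -0.10, FMA -0.09 and PYK10 0.19, none of them called. Between genotypes AT1G22690 was higher in ACX at 0 h by 1.00 (adjusted p = 0.0215), and its 72 h change differed by -1.97 (adjusted p = 0.0118), while FMA had 0.09 and -0.48, neither called. In leaf samples a change in the share of a cell type cannot be told apart from a change of transcript per cell, and the part of these markers in the UGT values was not tested.

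Among the 3 times, 72 h was the one at which any of the 4 genes was called between genotypes. UGT73C1 was 2.43-fold higher in ACX than in WT (log2 difference 1.28, SE 0.29, adjusted p = 0.0184, limma), and UGT73B4 had a difference of 1.04 (SE 0.37, adjusted p = 0.17) and UGT73B5 of 0.70 (SE 0.37, adjusted p = 0.438). All 3 ACX arrays lay above all 3 WT arrays for these 3 genes, as for 9.62% of probe sets. UGT76B1 had a difference of -0.55 (SE 0.47, adjusted p = 0.749), with a 95% interval from -1.52 to 0.43, and its groups overlapped. In all 1 of 4 genes was called, where 2.79% of probe sets were called in either direction and 1.56% higher. The UGT73C1 call was lost in a fit restricted to the 6 arrays of 72 h (adjusted p = 0.146), without ACX 72 h replicate 1 (0.98, adjusted p = 0.104) or 3 (1.21, 0.0926), and without WT 72 h replicate 1 (1.05, 0.144).

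ACX 72 h replicate 1 was the highest of its group for the 3 UGT73 genes and the lowest for UGT76B1. The same array did not stand out over the 2470 other probe sets that rose at least 2-fold in WT at 72 h, with a median difference from ACX 0 h of 1.55 against 1.43 and 1.52 on the other two. Without it the genotype difference at 72 h was 0.63 for UGT73B4. In WT, replicate 3 at 72 h was the lowest for UGT76B1 and the highest for UGT73B5 and UGT73C1, and without it the UGT76B1 difference between genotypes was -1.04.

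The change from 0 h to 72 h itself differed between genotypes for UGT73C1, by 1.41 (SE 0.36, adjusted p = 0.0217, limma). This was 1 of 4 genes called, against 5.99% of probe sets in either direction. For UGT76B1 the difference of the change was -1.57 (SE 0.58, adjusted p = 0.118), for UGT73B4 0.95 (SE 0.46, adjusted p = 0.276) and for UGT73B5 0.19 (SE 0.45, adjusted p = 0.913). The UGT73C1 call was lost with 0 h replicates 4 to 6 only (1.20, adjusted p = 0.0829), without ACX 72 h replicate 1 (1.11, 0.0781) or 3 (1.33, 0.0683) and without WT 72 h replicate 1 (1.18, 0.0955). The UGT76B1 difference passed with array weights (-1.66, 0.0393), with the 4 groups fitted alone (-1.57, 0.0305) and without WT 72 h replicate 3 (-2.07, 0.0295). In 17 of 18 fits that left out 1 array it did not pass, with adjusted p up to 0.325. Array weights gave 2444 called probe sets in this comparison, against 1362 in the main fit. Of the guard cell markers AT1G22690 had -1.97 in the same comparison (adjusted p = 0.0118) and FMA -0.48 (adjusted p = 0.166). Their part in the UGT values was not tested.

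Without the herbicide UGT76B1 was 2.03-fold higher in ACX (log2 difference 1.02, SE 0.33, 95% interval 0.33 to 1.71), which did not pass the threshold after adjustment over all probe sets (adjusted p = 0.063, limma). It lay on the other side of the threshold with array weights (adjusted p = 0.038), in a fit restricted to the 12 arrays of 0 h (adjusted p = 0.00511) and when the lowest 25% of probe sets were left out (adjusted p = 0.046). It also did so without WT 0 h replicate 3 (1.11, adjusted p = 0.047) and without ACX 0 h replicate 4 (1.13, 0.0495). In 10 of 12 fits that left out 1 array it did not pass, with adjusted p up to 0.13. The guard cell marker AT1G22690, with 1.00 (adjusted p = 0.0215), moved the same way at 0 h. The other measured guard cell marker, FMA, had 0.09 (adjusted p = 0.742). The part of these markers in the UGT76B1 result was not tested. Groups that do not overlap with ACX higher, as here, were found for 1.68% of probe sets. The differences of UGT73B5 (0.51, SE 0.26, adjusted p = 0.282), UGT73B4 (0.09, 95% interval -0.46 to 0.64, adjusted p = 0.917) and UGT73C1 (-0.13, -0.55 to 0.30, adjusted p = 0.831) did not pass. Thus 0 of 4 genes were called by limma and 1 had an unadjusted p under 0.05, where 7.35% of all probe sets were called. ACX 0 h replicates 3 and 6, the highest for UGT73B5, also had the highest medians over the 831 probe sets that rose in WT at 1 h (0.29 and 0.19 against the ACX 0 h mean, the other 4 arrays below 0). Without these 2 arrays, left out after seeing the data, the UGT73B5 difference was 0.18 and the UGT76B1 difference 0.91 (adjusted p = 0.206).

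At 1 h no difference between genotypes passed the test for the 4 genes (adjusted p = 1.00 each, limma). The log2 difference of ACX from WT was -0.37 for UGT73B5 (95% interval -1.14 to 0.39), -0.17 for UGT73B4 (-0.95 to 0.60), -0.10 for UGT73C1 (-0.70 to 0.51) and 0.05 for UGT76B1 (-0.92 to 1.03), and the groups overlapped for each gene. Without ACX 1 h replicate 1 these differences were 0.057, 0.50, 0.16 and 0.76, all above 0, and none was called. By limma 0 of 4 were called, 0 had an unadjusted p under 0.05 and 0.0352% of all probe sets were called. These tests use the 1 h arrays in which the genes had been chosen as high, so nothing is read from their outcome. The difference between genotypes of the 1 h change, given with no test, was -0.97 for UGT76B1 (SE 0.58), -0.88 for UGT73B5 (SE 0.45), -0.26 for UGT73B4 (SE 0.46) and 0.03 for UGT73C1 (SE 0.36).

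**Figure D3:**
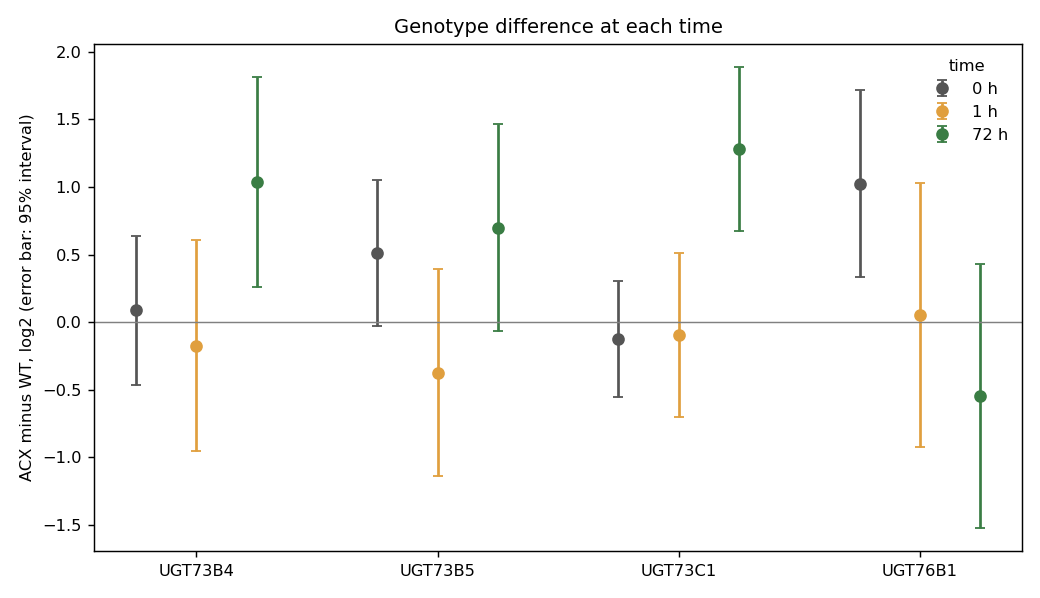
Log2 difference of ACX from WT (vertical axis) for the 4 genes at 0 h, 1 h and 72 h, with 95% intervals from the fit over all arrays. At 72 h the 3 UGT73 genes lie between 0.70 and 1.28 and UGT76B1 at -0.55, and at 1 h all 4 intervals include 0.

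Most other genes of the family did not pass the test at 1 h. Of the other 47 measured UGT genes, 12 rose and 6 fell in WT at 1 h, where 11% of probe sets were called higher and 15.6% lower, and 12 rose and 4 fell in ACX (10.9% and 12.7%). Their median change was 0.15 in WT and 0.09 in ACX, beside -0.02 over all probe sets in each. At 72 h 14 rose and 9 fell in WT (26.4% and 27% of all probe sets), and 21 rose and 8 fell in ACX (26.3% and 27%), with medians of 0.06 and 0.31 beside -0.06 over all probe sets in each. By change at 72 h UGT73B5 ranked 2 of 51 in WT and 3 in ACX. UGT76B1 ranked 6 in WT and 25 in ACX, UGT73B4 12 in WT and 9 in ACX, and UGT73C1 14 in WT and 8 in ACX.

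**Figure D4:**
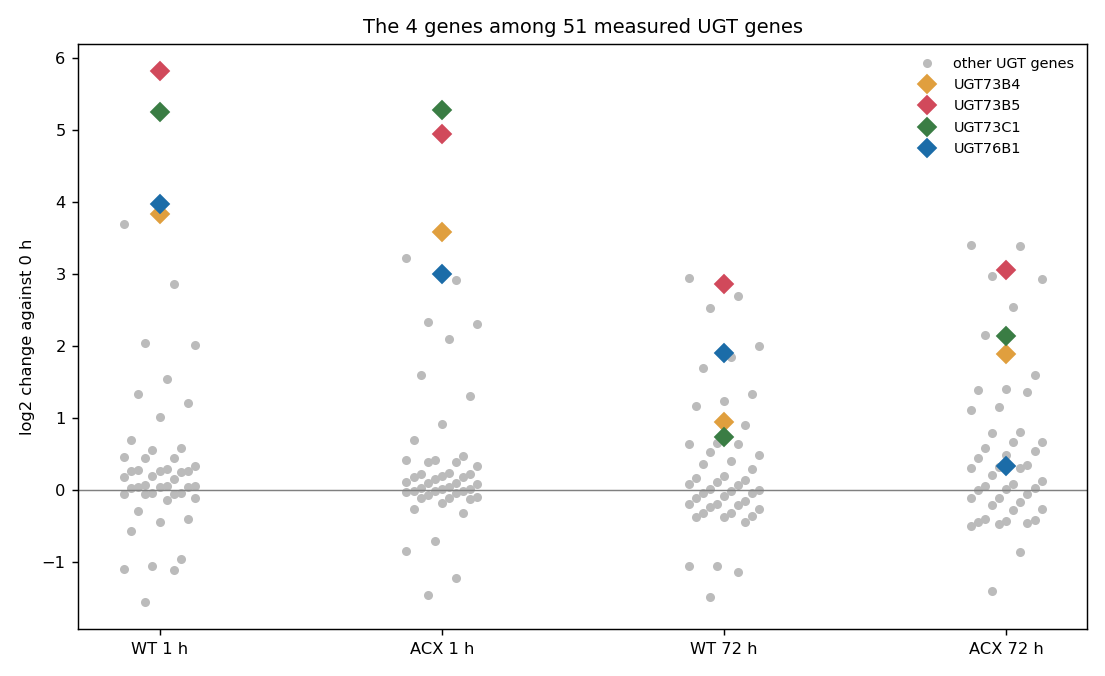
Log2 change against 0 h (vertical axis) of 51 measured UGT genes in each genotype and time (horizontal axis). Coloured diamonds are the 4 genes, grey points the other 47, spread sideways for legibility. At 1 h the 4 genes lie at the top together with UGT76E12 (3.69 in WT and 3.22 in ACX), and at 72 h they lie among other genes of the family.

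Closer relatives were a list of 22 UGT73 and UGT76 loci, of which 16 had a named probe set. In WT at 1 h 5 rose and 1 fell, where 11% of all probe sets were called higher and 15.6% lower, and in ACX 4 rose and 0 fell (10.9% and 12.7%). UGT73B1 rose by 2.86 in WT (SE 0.19, adjusted p = 3.5e-10, limma) and 2.92 in ACX, and UGT76E12 by 3.69 (SE 0.41, adjusted p = 7.63e-07) and 3.22. UGT76E11 rose by 1.33 and 2.30. UGT73D1 had a change of 0.15 in WT (adjusted p = 0.746) and 0.41 in ACX (adjusted p = 0.289) at 1 h, and UGT73C7 of 0.25 (adjusted p = 0.17) and 0.47 (adjusted p = 0.0113). At 72 h 3 rose and 5 fell in WT (26.4% and 27% of all probe sets), and 7 rose and 4 fell in ACX (26.3% and 27%). UGT73D1 rose then by 2.00 in WT and 1.39 in ACX. UGT76C1 and UGT76C2, cytokinin N-glucosyltransferases, moved in opposite directions, with UGT76C1 at 1.17 and 1.36 and UGT76C2 at -1.50 and -1.40. UGT73B1, the relative of UGT73B4 and UGT73B5, had a change of 0.29 in WT (adjusted p = 0.207) and rose by 0.48 in ACX (adjusted p = 0.0421).

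UGT76E12 had a genotype difference at 72 h like that of UGT73C1. It was higher in ACX than in WT by 1.79 (SE 0.48, adjusted p = 0.0464, limma), with 7.57 ± 0.88 against 5.79 ± 0.55 (SD, n = 3 each). Its change from 0 h to 72 h differed between genotypes by 2.08 (adjusted p = 0.0367), and that of UGT76E11 by 1.93 (adjusted p = 0.00596). UGT76E11 was lower in ACX at 0 h (-1.18, adjusted p = 0.00315) and at 72 h had changes of -1.14 in WT and 0.79 in ACX. Alternative settings of the fit were not run for UGT76E12 and UGT76E11, so how firm these calls are is not known. Between genotypes at 72 h, 635 probe sets were called in the main fit and 2 in a fit restricted to the compared groups.

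Glutathione transferases form the parallel branch of conjugation. Of 39 listed loci 13 had a named probe set, of which 2 rose and 3 fell in WT at 1 h (11% and 15.6% of all probe sets) and 2 rose and 2 fell in ACX (10.9% and 12.7%). GSTU25 rose by 3.35 in WT (SE 0.48, adjusted p = 1.83e-05, limma) and 3.40 in ACX, and GSTU16 by 0.56 and 1.15. GSTU27 fell, with -0.97 and -1.17. At 72 h 3 rose and 4 fell in WT (26.4% and 27% of all probe sets) and 4 rose and 4 fell in ACX (26.3% and 27%), with GSTU16 at 1.35 and 1.70. The median change of the 13 lay between -0.10 and -0.04 in all 4 comparisons with 0 h.

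Of 13 other loci listed as outputs of the xenobiotic response 3 had a named probe set. All 3 rose at 1 h in both genotypes, where 11% of all probe sets were called higher in WT and 10.9% in ACX. AER, an alkenal reductase that removes reactive carbonyls, rose by 3.33 in WT (SE 0.14, adjusted p = 2.98e-13, limma) and 3.55 in ACX, AT2G04070 by 0.70 and 0.61 and AT2G04050 by 0.68 and 0.83. At 72 h 3 were called higher in WT and 2 in ACX, where 26.4% and 26.3% of all probe sets were called higher. AER was then at 0.62 in WT and 1.43 in ACX, a difference between genotypes of 0.80 in this change (adjusted p = 0.0221, limma). It was 0.70 higher in ACX at 72 h (adjusted p = 0.0241). The other 2 were not called in either comparison, where 5.99% and 2.79% of all probe sets were called. The lowest values among the 3 were -0.68 for the change and -0.52 at 72 h. Alternative settings of the fit were not run for AER. None of 7 listed regulators, the TGA factors and SCL14, had a named probe set.

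Of 20 loci of the salicylic acid and N-hydroxypipecolic acid pathway, in which UGT76B1 acts, 2 had a named probe set. UGT74F1, which glucosylates salicylic acid, rose by 0.56 in WT (SE 0.11, adjusted p = 0.000449, limma) and 0.39 in ACX at 1 h. At 72 h its change was -0.05 and -0.11, neither called. AT5G52810 rose at 1 h by 2.56 in WT (SE 0.20, adjusted p = 4.4e-09) and 1.83 in ACX, and by 0.98 at 72 h in WT, with 0.46 in ACX (not called). At 0 h it was higher in ACX by 0.66 (adjusted p = 0.0172). The biosynthetic and receptor genes of the pathway are otherwise not analysed here.

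Likeness of pattern was measured as the root mean square difference between the 6 group means of 2 genes after each gene's own mean was subtracted, over 13509 probe sets that name 1 gene. The nearest to UGT73B4 were AER (0.21), AT1G63530 (0.22) and GSTU25 (0.25). For UGT73C1 they were AT5G51830 (0.30), AT1G59660 (0.51) and again AT1G63530 (0.58). UGT73B5 stood further from any other gene, with AT4G01870 (0.37), AT3G04000 (0.54) and AT4G22530 (0.66). The nearest to UGT76B1 were AT1G52200 (0.23), AT5G51440 (0.27) and AT4G19880 (0.27). Since these genes were picked by the 6 group means, their values in those groups are no separate observation.

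**Figure D5:**
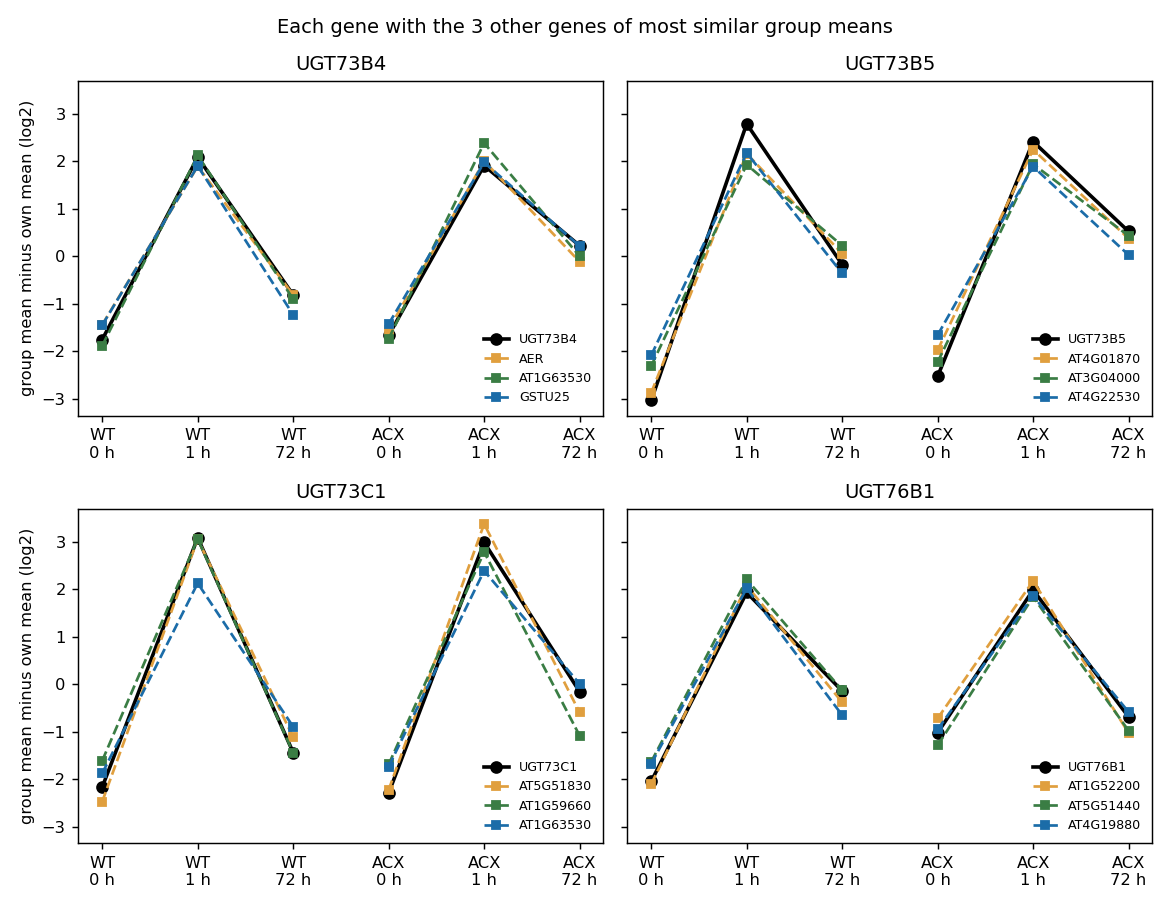
Group mean minus the gene's own mean over the 6 groups (vertical axis, log2) for each of the 4 genes (black) and the 3 genes of most similar pattern (dashed, coloured), with WT and ACX times on the horizontal axis. The differences in pattern range from 0.21 for AER beside UGT73B4 to 0.66 for AT4G22530 beside UGT73B5.

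Among the 4 genes themselves the closest pair was UGT73B4 and UGT76B1 (0.55), and the neighbouring genes UGT73B4 and UGT73B5 differed by 0.78. The furthest were UGT73C1 and UGT76B1 (0.99) and UGT73B5 and UGT76B1 (0.97). This measure includes the 1 h values by which the genes were chosen. Between genotypes at 72 h, UGT73B4 had a difference of 1.04 and UGT76B1 of -0.55. By rank of closeness among probe sets that name 1 gene, UGT73B5 and UGT73C1 were nearer to each other (7 and 10) than UGT73B4 and UGT76B1 (20 and 16).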

How the data were processed

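Deposited values are on a log2 scale, 1 per probe set and array. The submitters' processing notes list RMA and limma and give no version or setting. RMA as usually run quantile-normalizes arrays, which hides a shift shared by most genes. Of 22810 probe sets 64 controls were left out. Gene names came from a 2016 platform annotation (13513 probe sets with 1 gene, 503 with several, 8730 not listed), joined by gene ID to the RefSeq TAIR10.1 gene table (13436 matched), which also gave gene order.

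With limma 3.58.1 in R 4.3.3, 1 mean per group was fitted to the 24 arrays (18 residual and 3.23 prior degrees of freedom), with no filter, two-sided tests and Benjamini-Hochberg adjustment over 22746 probe sets at 0.05. Gene lists used 1 probe set per gene, that with the highest mean. Genes named are the 4 genes, their neighbours, the 3 nearest in pattern for each, measured UGT73 relatives and up to 4 called genes of each list with large changes. The members and lists were chosen with earlier results of these data known, and the neighbours and the 51-gene family were added after the values were seen. In simulated data of 22746 probe sets, the comparison of ACX with WT at 72 h recovered 68% of 2-fold and 100% of 4-fold changes. In the real data the SE of a treated group against 0 h had a median of 0.13 over all probe sets. For the 4 genes it was 0.25 to 0.41, so these rates may not hold for them. The alternatives were array centring, quantile normalization, a filter, another prior, array weights, fits restricted to the compared groups, a replicate block, subsets of the 0 h arrays and leaving out each array. Replicates are separate pools of plants per the labels, which give no batch. Sequences of the genes were not used here.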

Additional observations from a re-analysis of the deposited data

Results flagged for a closer look

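The 72 h change of UGT73C1 differed between the genotypes: it was larger in ACX by 1.41 on the log2 scale (SE 0.36, adjusted p = 0.0217, limma interaction term), from 4.49 ± 0.25 (SD, n = 6) to 6.63 ± 0.68 (SD, n = 3) in ACX and from 4.62 ± 0.30 (SD, n = 6) to 5.35 ± 0.41 (SD, n = 3) in WT. No array of a 0 h group stood apart from the other 5 by Dixon's criterion for any of the 4 genes.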

How the results depend on the processing

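Calls of UGT73B5 and UGT76B1 in WT at 72 h, and of UGT73B4, UGT73B5 and UGT73C1 in ACX at 72 h, kept their direction and side of the threshold under all alternatives run. With array centring the median 72 h change of all probe sets moved by -0.15 in WT and -0.14 in ACX, calls were 4948 higher and 10521 lower in WT and 5007 and 10012 in ACX, against 6007 and 6146 and 5980 and 6135 as deposited, and UGT73C1 in WT lost its call (0.57). Array weights gave a UGT76B1 difference of 1.06 at 0 h and -1.66 for the 72 h change (both gained), 0.034 for UGT73B4 at 1 h, and 45, 1357 and 2444 probe sets called for the genotypes at 1 h, at 72 h and for the 72 h change (main counts 8, 635 and 1362). Fitting only the groups compared gave 4 at 1 h and 2 at 72 h, UGT73C1 lost its call at 72 h (1.28), and UGT76B1 gained calls at 0 h (1.02) and for the 72 h change (-1.57); the filter on dim probe sets also gained UGT76B1 at 0 h (1.02). With 0 h replicates 1 to 3 only, UGT73B4 (0.78) and UGT73C1 (0.61) lost their WT calls, UGT73B4 at 0 h was -0.23 and 2691 probe sets differed at 0 h (main 1671); with 4 to 6 only, UGT73C1 at 0 h was 0.079, its 72 h change difference lost its call (1.20), and counts were 4184 and 2914. Without ACX 0 h replicates 3 and 6 the 0 h count was 1101.

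The labels do not say whether same-numbered replicates share a batch, and deviations of their arrays from group means correlated at -0.51 to 0.36 (10 of 48 pairs above 0.1), so the numbers were not taken as pairs. With a replicate block UGT73B4 in WT at 72 h lost its call (0.94, adjusted p = 0.0615), and no other gene's call changed.

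Leaving out each array in turn gave ranges of 0.90 to 0.99 for UGT73B4 and 0.56 to 0.96 for UGT73C1 in WT at 72 h, 0.98 to 1.65 for UGT73C1 and 1.11 to 1.78 for its 72 h change difference, 0.92 to 1.13 for UGT76B1 at 0 h and -2.07 to -1.24 for its 72 h change difference, and -0.039 to 0.41 for that of UGT73B5. At 1 h between genotypes it gave -0.64 to 0.50 for UGT73B4, -0.62 to 0.057 for UGT73B5, -0.27 to 0.16 for UGT73C1 and -0.63 to 0.76 for UGT76B1. Untested values ranged from 3.11 to 4.25 and 2.33 to 3.71 for UGT73B4 and UGT76B1 in ACX at 1 h, -2.36 to -1.22 and -3.38 to -1.99 from 1 h to 72 h, and -0.73 to 0.41 and -1.65 to -0.27 for how the 1 h change differed between genotypes. Counts of called probe sets were 3478 (without ACX 1 h replicate 3) to 5746 for ACX at 1 h, 1085 (without WT 0 h replicate 1) to 2263 between genotypes at 0 h, 4 (without ACX 1 h replicate 3) to 14 (without ACX 1 h replicate 2) at 1 h, 209 (without WT 72 h replicate 1) to 865 at 72 h and 705 (without WT 72 h replicate 1) to 1751 for the 72 h change. The causes were not tested.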
